A study of Mus musculus with 6 samples.

Results

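The genes described here are 10 transcripts that ERK signalling is known to raise: the MAP kinase phosphatase genes Dusp4, Dusp5 and Dusp6, the Sprouty genes Spry1, Spry2 and Spry4, the Spred genes Spred1 and Spred2, and the ETS transcription factor genes Etv4 and Etv5. They were chosen by symbol, all 10 had a row among the 26608 gene symbols of the count table, and all 10 were among the 13537 genes that passed the filter on low counts and were tested. Livers of mice aged 6 weeks were compared by RNA sequencing, 3 mice of the genotype LiKM against 3 of the genotype LiK. The labels give the genotypes by name only. What follows of the alleles is known from the study's publication: both genotypes carry a Cre recombinase under the albumin promoter, and LiKM mice differ from LiK mice in lacking Mdm2, the ubiquitin ligase that keeps the tumour suppressor p53 low, in the cells where it acts. The albumin promoter is active in hepatocytes and their progenitors, while RNA of whole liver holds the transcripts of all its cell types.

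RAS proteins pass growth factor signals through the RAF and MEK kinases to ERK, which enters the nucleus and acts on transcription factors. Among the genes that ERK switches on are its own inhibitors, which act at several steps of the cascade, so their transcripts are widely read as a record of recent ERK activity. In the liver the same cascade acts downstream of receptors for epidermal, hepatocyte and fibroblast growth factors.

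None of the 10 genes passed the test between the genotypes. The median of their log2 fold changes was 0.53, against 0.00 over all genes tested, with 8 values above 0 and 2 (Spry4 and Spred2) below. The test was edgeR's quasi-likelihood test, with a gene called where its p after Benjamini-Hochberg adjustment was under 0.05, and it called 0 of the 10 against 5.92% of all genes tested (5.11% higher and 0.813% lower in LiKM). At an unadjusted p under 0.05 there were 4 (Dusp6, Spry1, Etv4 and Etv5), against 22.4% of all genes. DESeq2's Wald test called 2 of the 10, Dusp6 and Spry1, where it called 11.8% of all genes, and limma-voom called Dusp6 alone, where it called 9.77%. Levels are given below in CPM, a gene's count relative to the TMM-scaled size of its library, and intervals are 95% intervals of a single gene's log2 fold change, not widened for the number of genes. With 3 mice a genotype the intervals are wide, and a missed threshold does not show that a gene was equal in both.

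**Figure D1:**
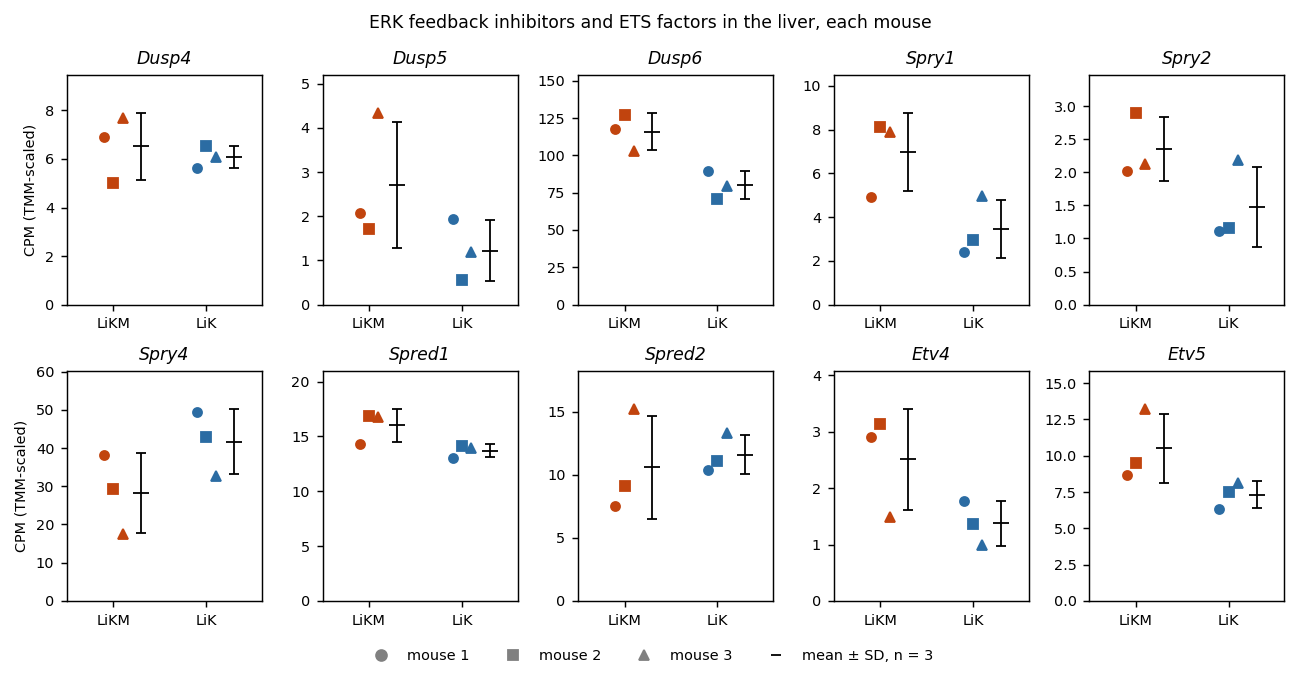
Level of each of the 10 genes in CPM after TMM scaling, with 1 point per mouse (circle, square and triangle for mice 1, 2 and 3), LiKM left of LiK, and the mean ± SD of 3 mice as a bar. The LiKM points lie above all LiK points for Dusp6, Spred1 and Etv5 and overlap them for the other 7 genes.

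The libraries held 19909993 to 20762712 counts in LiKM and 20778717 to 24874343 in LiK. Each pair of libraries of a genotype differed by more than sampling noise, and nothing in the labels says more of the mice than their numbers and codes. Mdm2 had 122, 125 and 60.5 CPM in LiKM mice 1, 2 and 3, against 28.7, 29.0 and 28.6 CPM in LiK, so LiKM 3 had the lowest level of its genotype. Its log2 fold change was 1.83 (SE 0.27, edgeR Benjamini-Hochberg adjusted p = 0.0196), and the call was lost without LiK 1, LiK 2, LiK 3 or LiKM 2 (adjusted p = 0.0840, 0.0778, 0.0520 and 0.0708 by the same test) and against a 1.5-fold change (0.0511). Gene-level counts sum all exons, so they do not check a deletion within Mdm2.

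The phosphatase genes came closest to the threshold through Dusp6. Dusp6 encodes a cytoplasmic phosphatase that removes phosphate from ERK and is the textbook negative feedback gene of the pathway (chr10:99263231-99267489, plus strand; all gene positions are from GENCODE M21 on GRCm38, since the build of the counts is not given in the sources used here). Its level was 118, 127 and 103 CPM in LiKM, against 89.7, 70.8 and 79.4 CPM in LiK. The lowest LiKM mouse lay above the highest LiK mouse. The mean was 116 ± 12.5 CPM in LiKM and 80.0 ± 9.44 CPM in LiK (SD, n = 3 each), which gave a log2 fold change of 0.54 (SE 0.13, interval 0.23 to 0.85; edgeR Benjamini-Hochberg adjusted p = 0.0607). The interval spans 1.17-fold to 1.80-fold. This call depended on the processing: Dusp6 passed the threshold with upper quartile scaling (adjusted p = 0.0455, 5.94% of all genes called) and with library totals (0.0266, 8.14% of all genes called) in edgeR, with DESeq2 (0.0214) and with limma-voom (0.0221), and without any 1 mouse its edgeR adjusted p lay between 0.0574 and 0.216.

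Dusp4 and Dusp5 encode phosphatases of the nucleus, and Dusp5 acts on ERK alone. Dusp4 (chr8:34807297-34819894, plus strand) had 6.91, 4.99 and 7.67 CPM in LiKM, against 5.63, 6.54 and 6.07 CPM in LiK. The LiKM mice lay on both sides of the LiK mice, and the log2 fold change was 0.10 (SE 0.20, interval −0.37 to 0.57; edgeR Benjamini-Hochberg adjusted p = 0.802). Its sign turned without LiKM 3 (−0.05) and in limma-voom (−0.05). Dusp5 (chr19:53529109-53542431, plus strand) was scarce, with 44, 38 and 90 counts in LiKM and 40, 11 and 29 counts in LiK. That is 2.07, 1.72 and 4.34 CPM in LiKM against 1.93, 0.554 and 1.19 CPM in LiK. LiKM 3 stood high and LiK 2 low, and LiKM 2 lay under LiK 1. The log2 fold change of 1.14 (SE 0.52, interval −0.08 to 2.36) was not called (edgeR Benjamini-Hochberg adjusted p = 0.253), and it ranged from 0.61 without LiKM 3 to 1.61 without LiK 1.

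Dusp5 was also the 1 gene among those with a promoter sequence that held a searched motif. Promoter windows of RefSeq (GRCm38.p6), 250 bases before to 50 after a start, were there for 7 of the 10 genes in 8 windows, with none for Dusp4, Spry4 or Etv4. Both strands were searched for TGAATGAA (bound by Capicua, the repressor of Etv4 and Etv5 that ERK relieves), CCGGAAGT (ETS factors), TGANTCA (AP-1) and TGACGTCA (CREB). The CArG box of serum response factor and the p53 response element without a spacer were searched too. Each motif was searched in this form only, so other forms bound by the same factor were not counted. The CArG box was in 1 of the 8 windows, against 1.63% of 32851 windows of all genes, and the other motifs were in 0 of 8, against shares of all windows of 1.30%, 3.89%, 7.81% and 1.79% in the order given and 0.00913% for the p53 element. The Dusp5 window held 2 adjacent CArG boxes, from 82 to 73 and from 72 to 63 bases before the RefSeq start, which do not overlap each other. That start differs from the GENCODE start of Dusp5 given above. Serum response factor with ETS partners is a known route from ERK to transcription. The stretch from 130 to 41 bases before the RefSeq start of Dusp5 is shown with the CArG boxes in capitals. Beside it is the same stretch of Dusp6, the gene nearest the threshold, which has none (chr19:53529015-53529104 and chr10:99263101-99263190, both plus strand).
Dusp5: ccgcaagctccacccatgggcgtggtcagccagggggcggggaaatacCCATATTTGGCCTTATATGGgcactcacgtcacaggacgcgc
Dusp6: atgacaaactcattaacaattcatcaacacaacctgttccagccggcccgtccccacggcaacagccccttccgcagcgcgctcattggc
A match of letters is a description of the sequence and not evidence of binding, and its absence from this window draws no statement on the factor.

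Among the Sprouty genes, whose proteins restrain signalling between receptor and RAF, Spry1 and Spry2 had higher means in LiKM and Spry4 a lower one, and none was called. Spry1 (chr3:37639947-37644598, plus strand) had 4.93, 8.12 and 7.91 CPM in LiKM, against 2.41, 2.97 and 4.97 CPM in LiK. LiKM 1 and LiK 3 were level, and the other LiKM mice stood above all LiK mice. The mean of 6.99 ± 1.78 CPM in LiKM against 3.45 ± 1.34 CPM in LiK (SD, n = 3 each) gave a log2 fold change of 1.01 (SE 0.32, interval 0.25 to 1.77). Its edgeR Benjamini-Hochberg adjusted p was 0.122 and ran from 0.0679 without LiK 3 to 0.298 without LiK 2. DESeq2's Wald test called it (adjusted p = 0.0408). Spry2 (chr14:105891947-105896819, minus strand) was scarcer, at 2.02, 2.90 and 2.12 CPM in LiKM against 1.11, 1.16 and 2.18 CPM in LiK, from 23 to 64 counts a mouse. LiK 3 again stood among the LiKM mice, and the log2 fold change of 0.65 (SE 0.34, interval −0.14 to 1.45) was not called (edgeR Benjamini-Hochberg adjusted p = 0.311); it was 1.05 without LiK 3 and 0.45 without LiKM 2.

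Spry4, on chromosome 18, had the lowest log2 fold change of the 10 genes. Its level was 38.2, 29.2 and 17.4 CPM in LiKM, against 49.5, 42.9 and 32.8 CPM in LiK. LiKM 1 lay above LiK 3, so the genotypes overlapped, and LiKM 3 had the lowest level of all. The mean of 28.2 ± 10.4 CPM in LiKM against 41.7 ± 8.44 CPM in LiK (SD, n = 3 each) gave a log2 fold change of −0.56 (SE 0.29, interval −1.23 to 0.11; edgeR Benjamini-Hochberg adjusted p = 0.302). The value was −0.33 without LiKM 3 and −0.87 without LiKM 1.

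The Spred proteins bind neurofibromin, bring it to the membrane and so lower active RAS. Spred1 (chr2:117121374-117182279, plus strand) was the steadiest of the 10 genes, at 14.3, 16.9 and 16.8 CPM in LiKM against 13.0, 14.1 and 13.9 CPM in LiK. All LiKM mice lay above all LiK mice, though the gap between the nearest pair was narrow. The coefficient of variation between mice was 9.20% in LiKM and 4.56% in LiK, and the log2 fold change was 0.23 (SE 0.12, interval −0.06 to 0.51; edgeR Benjamini-Hochberg adjusted p = 0.330). Spred2 (chr11:19924375-20024026, plus strand) had 7.52, 9.12 and 15.2 CPM in LiKM, against 10.4, 11.1 and 13.3 CPM in LiK. LiKM 1 and LiKM 2 lay under all LiK mice and LiKM 3 above them. Its log2 fold change was −0.13 (SE 0.27, interval −0.75 to 0.50; edgeR Benjamini-Hochberg adjusted p = 0.818), with −0.50 without LiKM 3 and 0.04 without LiKM 1.

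Etv4 and Etv5 encode closely related ETS transcription factors of the PEA3 group, known as outputs of fibroblast growth factor signalling through ERK. Etv4 (chr11:101769742-101785371, minus strand) had 2.91, 3.13 and 1.49 CPM in LiKM, from 62, 69 and 31 counts, against 1.78, 1.36 and 0.985 CPM in LiK, from 37, 27 and 24 counts. LiKM 1 and LiKM 2 stood above all LiK mice, and LiKM 3 lay among them. The log2 fold change was 0.87 (SE 0.37, interval 0.01 to 1.74; edgeR Benjamini-Hochberg adjusted p = 0.218). Etv5 (chr16:22381309-22439719, minus strand) had 8.69, 9.53 and 13.2 CPM in LiKM, against 6.36, 7.50 and 8.13 CPM in LiK, all LiKM mice above all LiK mice. Here LiKM 3 was the highest mouse, the opposite of Etv4, and the log2 fold change was 0.51 (SE 0.20, interval 0.04 to 0.98; edgeR Benjamini-Hochberg adjusted p = 0.187). Without LiKM 3 it was 1.12 for Etv4 and 0.29 for Etv5.

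**Figure D2:**
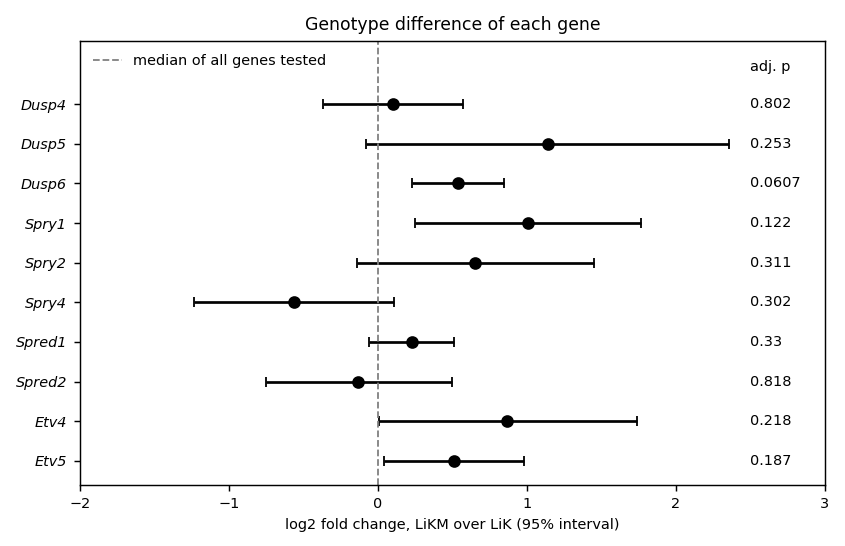
Log2 fold change of LiKM over LiK for each gene with its 95% interval, edgeR's Benjamini-Hochberg adjusted p (adj. p) at the right and the median of all 13537 genes tested as a dashed line. Intervals of Dusp6, Spry1, Etv4 and Etv5 lie above 0, and no adjusted p is under 0.05.

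In 3 of the 10 genes (Dusp6, Spred1 and Etv5) the LiKM mice lay above all LiK mice, against 17.8% of all genes tested, and in 0 of 10 they lay below all LiK mice, against 11.8% (29.6% in either direction). Values above 0 made up 8 of the 10 log2 fold changes, against 49.5% of all genes. These shares describe genes that were picked with earlier results of the same mice known, and they carry no test.

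The order of the mice differed among the 10 genes. On the log2 scale, LiKM 3 was the highest of all mice for Dusp5, at 1.34 above the gene's mean, and also for Dusp4, Spred2 and Etv5, at 0.29, 0.49 and 0.60. It was the lowest of all mice for Spry4, at −0.93, and the lowest LiKM mouse for Dusp6 and Etv4. LiK 3 stood apart from the other LiK mice by high Spry1 and Spry2 (0.06 and 0.25, against −0.95 to −0.61 in LiK 1 and LiK 2). The mean of the 10 deviations was 0.13, 0.22 and 0.28 in LiKM 1, 2 and 3, and −0.18, −0.33 and −0.12 in LiK 1, 2 and 3. LiKM 3 also had the lowest Mdm2 of its genotype, and the part of that in these values was not tested.

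**Figure D3:**
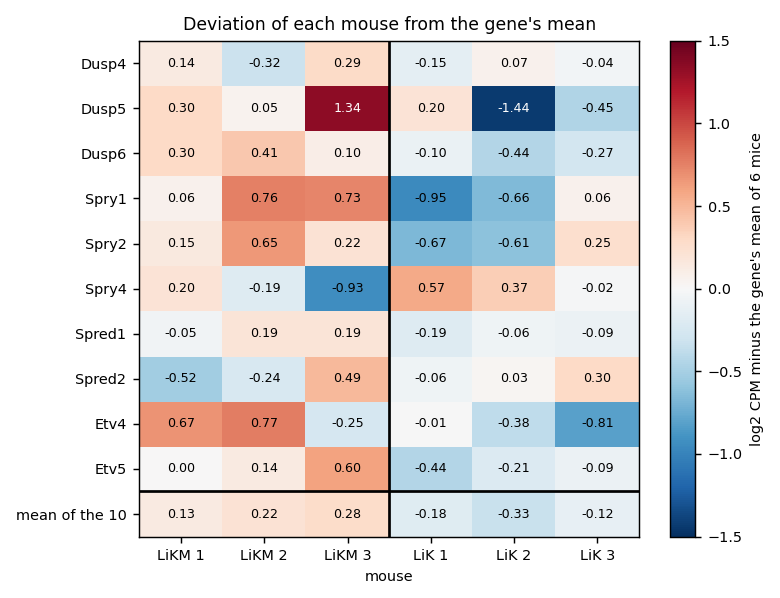
Deviation of each mouse (columns, LiKM left of LiK) from the gene's mean over 6 mice, in log2 CPM, for the 10 genes and their mean in the bottom row. Red is above and blue below the mean, and LiKM 3 is highest for Dusp5 (1.34) and lowest for Spry4 (−0.93).

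Per length of transcript, Dusp6 was the most abundant of the genes in both genotypes and Spry4 came next. Levels were divided by the exonic bases of each gene in GENCODE M21, which may not be the annotation used for counting. Dusp6 had 37.1 ± 4.0 CPM per kb in LiKM and 25.5 ± 3.01 in LiK, and Spry4 had 5.94 ± 2.19 CPM per kb in LiKM and 8.78 ± 1.77 in LiK (SD, n = 3 each), so the ranges of the pair did not meet in either genotype. In LiKM, Etv5, Spry1, Dusp4, Spred1 and Spred2 followed at means of 2.55 down to 2.30 CPM per kb and overlapped each other. Spry2, Dusp5 and Etv4 came last in LiKM at 1.13, 1.10 and 0.81 CPM per kb, again overlapping. Dusp5 (0.697 to 1.75 CPM per kb) also overlapped Spry1 (1.70 to 2.79) and Spred2 (1.63 to 3.30) there. In LiK the order after Spry4 was Spred2, Dusp4, Spred1 and Etv5, from 2.51 to 1.79 CPM per kb, then Spry1, Spry2, Dusp5 and Etv4, from 1.19 to 0.443 CPM per kb. In LiK each of these genes overlapped its neighbour in the order, Spry1 (0.828 to 1.71 CPM per kb) with Etv5 (1.55 to 1.98 CPM per kb) included.

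Other parts of the RAS to ERK pathway were read from lists of genes in the same fit, beside which stand the shares of all genes tested that rose (5.11%), fell (0.813%) or had a log2 fold change above 0 (49.5%). The lists themselves carry no test. The cascade itself, from adaptors and RAS proteins to ERK and its kinases, held 28 tested genes, of which 1 rose, 0 fell and 27 were not called, with a median log2 fold change of 0.01, so the share called was near that of all genes. The 1 called gene was Rasgrp1, an activator of RAS that is prominent in T cells, with 2.21, 4.13 and 3.09 CPM in LiKM against 1.01, 1.46 and 1.03 CPM in LiK (log2 fold change 1.43, SE 0.32, edgeR Benjamini-Hochberg adjusted p = 0.0464). No fit without 1 of the mice called any gene of this list, nor did a test for more than a 1.5-fold change. Library totals and limma-voom called 2 each, where they called 8.14% and 9.77% of all genes. Of 18 proteins that restrain RAS or ERK, 1 rose and 0 fell, again a share near that of all genes, with a median of 0.40. That gene, Pea15a, encodes a protein that holds ERK in the cytoplasm, and it averaged 26.0 ± 3.00 CPM in LiKM and 15.3 ± 1.88 CPM in LiK (SD, n = 3 each; log2 fold change 0.76, SE 0.14, edgeR Benjamini-Hochberg adjusted p = 0.0307). Of the fits that leave out a mouse, the one without LiK 3 alone called it, and a test for more than a 1.5-fold change did not. DESeq2 called 3 of the list higher and 1 lower, and limma-voom 3 higher, where they called 11.8% and 9.77% of all genes in either direction. The relatives Il17rd (1.00, SE 0.43) and Spred3 (0.59, SE 0.30), an inhibitor of fibroblast growth factor signalling and a further Spred gene, were not called, and both were chosen for mention after their values were seen.

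Of 7 tested genes of other dual specificity phosphatases of MAP kinases, some of which also act on ERK, 0 were called by edgeR, with a median of 0.71. An unadjusted p under 0.05 was found for 3, against 22.4% of all genes tested. DESeq2 called 1 and limma-voom 2, where they called 11.8% and 9.77% of all genes. The most abundant were Dusp1 (−0.48, SE 0.39) and Dusp16 (0.03, SE 0.10). Of 7 tested fibroblast growth factor receptors and partners, 0 were called by edgeR, DESeq2 or limma-voom, with a median of −0.12. In edgeR 1 had an unadjusted p under 0.05, against the same 22.4% of all genes tested. Their most abundant genes were Fgf1 (−0.65, SE 0.27) and Fgfr2 (0.19, SE 0.30).

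Some other genes known to respond to ERK did rise. Of 25 tested, 5 rose, 0 fell and 20 were not called, with a median of 0.60 and 22 values above 0, where 5.11% of all genes rose and 49.5% were above 0. Klf6, a zinc finger transcription factor gene, had 18.2, 14.2 and 20.3 CPM in LiKM against 5.59, 5.44 and 7.43 CPM in LiK (log2 fold change 1.51, SE 0.20, edgeR Benjamini-Hochberg adjusted p = 0.0148). The immediate early gene Ier5 had 12.1, 14.0 and 17.3 CPM in LiKM against 5.97, 8.15 and 5.75 CPM in LiK (1.13, SE 0.20). In both genes the genotypes did not overlap. Egr2, an immediate early transcription factor gene, was near the limit of detection, with 15, 10 and 25 counts in LiKM against 3, 2 and 1 counts in LiK. It passed the filter through the LiKM mice alone, and the filter at 1 CPM in 3 libraries left it out. Dusp1 and Etv1 stand both in this list and in the lists of other phosphatases and other ETS factors. Ccnd1, which encodes cyclin D1, averaged 127 ± 48.6 CPM in LiKM and 30.5 ± 17.6 CPM in LiK (SD, n = 3 each; 2.06, SE 0.44), and Plaur, the urokinase receptor gene, 1.78 ± 0.751 CPM in LiKM and 0.475 ± 0.120 CPM in LiK (1.89, SE 0.41). Without LiKM 1, LiKM 2, LiKM 3, LiK 1, LiK 2 or LiK 3 the members called higher numbered 2, 1, 2, 0, 0 and 2, and the test against a 1.5-fold change called 1 (Klf6).

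Of 22 other ETS factors and regulators of Capicua, 3 rose, 0 fell and 19 were not called, with a median of 0.21. Of all genes tested, 5.11% rose and 0.813% fell. Elf4 averaged 5.91 ± 0.407 CPM in LiKM and 2.61 ± 0.169 CPM in LiK (log2 fold change 1.18, SE 0.17), Sfpi1, also called Spi1, 9.44 ± 0.898 and 4.65 ± 0.811 CPM in LiKM and in LiK (1.02, SE 0.18), and Ets1 25.2 ± 1.65 and 15.9 ± 2.65 CPM in LiKM and in LiK (0.66, SE 0.15; SD, n = 3 each). These ETS genes are known for expression in blood cells, Sfpi1 in myeloid cells and Ets1 in lymphocytes and endothelium. Without LiKM 1, LiKM 2, LiKM 3, LiK 1, LiK 2 or LiK 3 the called genes numbered 1, 0, 2, 0, 0 and 1. DESeq2 and library totals called 6 each and limma-voom 5, where they called 11.8%, 8.14% and 9.77% of all genes in either direction. Size factors by median ratio called 2, and Ets1 was not called there (edgeR adjusted p = 0.0507). In the test against a 1.5-fold change 0 passed. Etv1, the remaining PEA3 gene, was scarce at 0.609 ± 0.0429 CPM in LiKM and 0.397 ± 0.0574 CPM in LiK and was not called (0.60, SE 0.32), nor was the Capicua gene Cic at 48.5 ± 6.29 CPM in LiKM and 39.2 ± 1.33 CPM in LiK (0.30, SE 0.12); both were named after their values were seen.

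**Figure D4:**
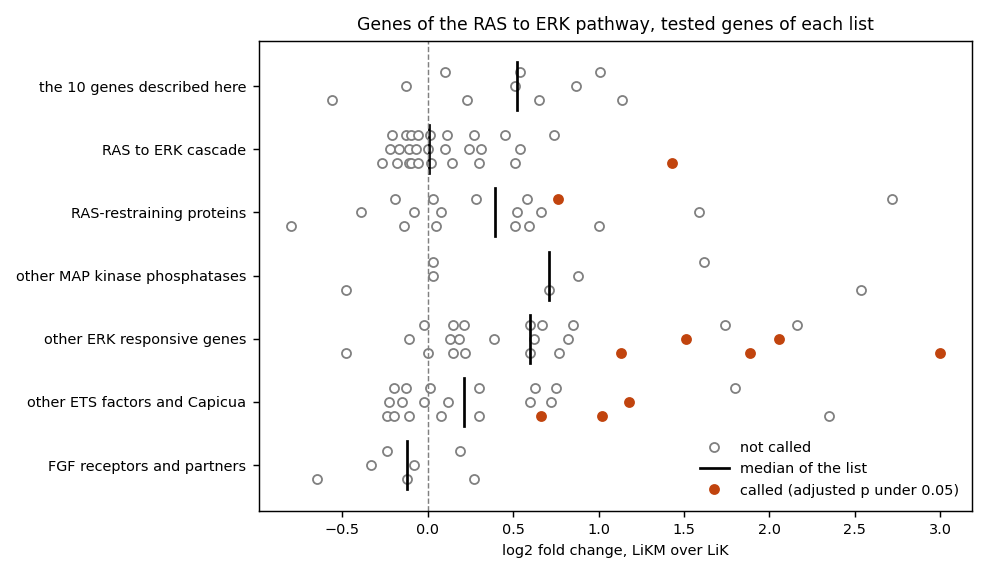
Log2 fold change of LiKM over LiK for every tested gene of each list, with called genes filled, other genes open and the list's median as a black bar. No gene is called in the top row, the 10 genes described here, where the median is 0.53, and 5 are called among the other ERK responsive genes.

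Some markers of other cell types moved with genotype in the same mice. In bulk RNA, more cells of a type and more RNA per cell cannot be told apart. Of all genes tested, 5.11% rose, 0.813% fell and 22.4% had an unadjusted p under 0.05 by edgeR's test. DESeq2 called 11.8% of all genes in either direction and limma-voom 9.77%. Of 10 tested T and natural killer cell markers, 9 rose (Cd8a, Il2rb and Lck had the smallest p). The summed levels of the list were 15.5 to 21.5 CPM in LiKM and 3.78 to 6.98 CPM in LiK. Cd4 alone held 4.96, 3.37 and 1.68 CPM of the sums of 6.98, 5.89 and 3.78 CPM in LiK 1, 2 and 3. Most of the 9 passed the filter through the LiKM mice alone, Cd8a with 4, 3 and 2 counts and Lck with 5, 8 and 7 in LiK. The filter at 1 CPM in 3 libraries left 5 calls, and the test against a 1.5-fold change 4. Cd4, the 1 tested marker not called, went the other way, at 1.73 ± 0.368 CPM in LiKM and 3.34 ± 1.64 CPM in LiK (log2 fold change −0.94, SE 0.41). Of 12 macrophage markers 5 rose (Lyz2, C1qa and C1qb led), with sums of 441 to 607 CPM in LiKM and 297 to 375 CPM in LiK, and of 12 stellate cell and fibroblast markers 4 rose (Lum, Col1a1 and Col3a1 led), with sums of 691 to 745 CPM in LiKM and 270 to 444 CPM in LiK. Of 10 tested cholangiocyte and progenitor markers 1 rose, Prom1, with 9 values above 0, a median log2 fold change of 1.05 and sums of 183 to 374 CPM in LiKM and 156 to 316 CPM in LiK. Spp1 and Cdh1 made up most of these sums in every mouse, Spp1 alone 225 of the 316 CPM in LiK 1. DESeq2 called 3 of the cholangiocyte and progenitor markers. At an unadjusted p under 0.05 there were 9, 12, 11 and 6 genes in the T and natural killer cell, macrophage, stellate and cholangiocyte lists. Of 12 endothelial markers 0 were called, with sums of 317 to 462 CPM in LiKM and 321 to 364 CPM in LiK, and 4 had an unadjusted p under 0.05; limma-voom called 1. The 4 tested neutrophil and 6 tested B cell markers had 0 calls by edgeR, DESeq2 or limma-voom, with 0 and 1 at an unadjusted p under 0.05. The 10 hepatocyte markers, Alb and Apoa1 the most abundant, had 0 calls by edgeR, and DESeq2 called 1 lower. Their sums were 125000 to 142000 CPM in LiKM and 121000 to 146000 CPM in LiK. Alb made up most of them, at means of 97200 CPM in LiKM and 90900 CPM in LiK. The median log2 fold change was −0.24, with 3 values above 0. In 4 the LiKM mice lay below all LiK mice, against 11.8% of all genes. The 3 with an unadjusted p under 0.05 were all lower in LiKM: Cyp2e1 (−0.81, SE 0.23), Serpina1a (−0.57, SE 0.24) and Hnf4a (−0.48, SE 0.20). Without LiK 2 the calls numbered 0 in each of the T and natural killer cell, macrophage, stellate and cholangiocyte lists, and without LiKM 2 they numbered 1, 0, 0 and 0. No marker with a row was at 0 in all mice. Several of the 10 genes, Spry1 and Dusp5 among them, are expressed in endothelial, stromal or immune cells as well as in hepatocytes, and the part of the cell types in their values was not tested.

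**Figure D5:**
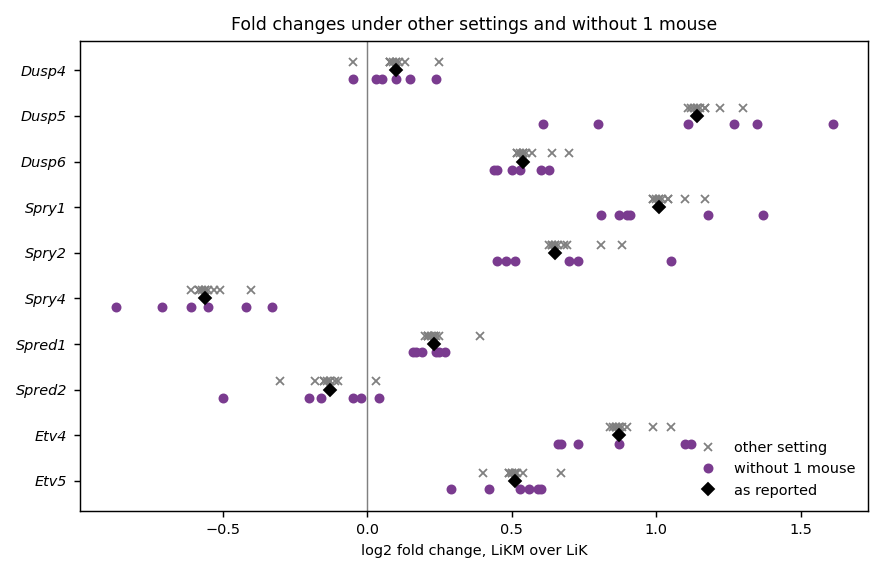
Log2 fold change of LiKM over LiK for each gene as reported (diamonds), under 10 other settings (crosses) and without each of the 6 mice (circles). Leaving out 1 mouse moved Dusp5 between 0.61 and 1.61, and the sign turned for Dusp4 and Spred2.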

How the data were processed

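Libraries of liver messenger RNA kept strand, per the labels' protocols. The authors deposited raw read counts per gene symbol, 1 column per mouse, and the submitters' processing notes name featureCounts and FastQC 0.11.7. Which aligner, build, annotation and strand setting were used is not given in the sources used here. GENCODE M21 lists genes on the opposite strand within Dusp5, Spry1 and Spry4, none of them a row of the table, so reads from them cannot be told apart if strand was ignored. Column names matched the codes in the sample titles, and 0 columns were left unused.

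Counts were used as deposited. Genes were kept by edgeR 4.0.16's expression filter (a count of about 10 in 3 libraries, a total of at least 15), scaled by TMM and compared with the quasi-likelihood test in R 4.3.3, genotype as the only term, with Benjamini-Hochberg adjustment over the genes tested and a threshold of 0.05. Standard errors come from the coefficient and its F statistic, and intervals from the test's degrees of freedom. Nothing in the labels says more of the mice, so p-values measure the spread between these samples. The script was tested on simulated data. Alternatives were other scalings, DESeq2 1.42.0, limma-voom (limma 3.58.1), robust shrinkage, 2 other filters, a block for the replicate number, a test for more than a 1.5-fold change, and fits without each mouse.

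The genes and lists were chosen with earlier results of these data known. Of 213 list memberships, 206 matched by symbol and 4 by an older symbol, and 3 were not analysed here. Named genes were the 10, Mdm2, a gene that is not reported here, up to 3 called genes of each other list with the smallest adjusted p or else its 2 most abundant, and the 5 genes with the most similar profile. Ccnd1, Plaur, Il17rd, Spred3, Etv1, Cic, Cd4, Spp1, Cdh1, Cyp2e1, Serpina1a and Hnf4a fall outside this rule and were chosen after their values were seen.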

Additional observations from a re-analysis of the deposited data

How the results depend on the processing

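Under the alternatives, 1 of the 10 genes was called higher with upper quartile scaling, with library totals and with limma-voom (Dusp6, log2 fold changes 0.57, 0.70 and 0.64), and 2 with DESeq2 (Dusp6 at 0.52 and Spry1 at 0.99). Robust shrinkage, size factors by median ratio, either other filter, the test against a 1.5-fold change, the replicate block and each fit without a mouse called 0, and no fit called any of the 10 lower. Over all genes, 692 were higher and 110 lower as reported, 1039 and 63 with library totals, 1214 and 377 with DESeq2, 1063 and 260 with limma-voom, and 115 and 12 in the test against a 1.5-fold change. Leaving out 1 mouse gave 18 to 525 higher and 1 to 101 lower, with 2 mice left in a genotype. Signs turned for Spred2 with library totals (0.03), for Dusp4 and Dusp16 in limma-voom (−0.05 and −0.02), and without 1 mouse, where Dusp4 ranged from −0.05 to 0.24, Spred2 from −0.50 to 0.04, Dusp16 from −0.02 to 0.08 and Fgfr2 from −0.02 to 0.55. Library totals, which leave out the TMM factors, moved the median of all genes to 0.16. Those factors were 1.026, 1.108 and 1.039 in LiKM 1, 2 and 3, and 0.9032, 0.9568 and 0.9802 in LiK 1, 2 and 3. Why the factors differed between the genotypes, and the cause of the other differences between settings, was not tested. The replicate block gave 669 higher and 166 lower genes, among them 1 fibroblast growth factor gene, Fgf1, and 1 hepatocyte marker called lower. Under it 3 of the other ERK responsive genes and 2 of the other ETS genes were called, and Egr2, Ccnd1, Plaur and Ets1 were not (adjusted p = 0.0547, 0.0727, 0.0538 and 0.0628); robust shrinkage and the filter at 1 CPM called 4 of the ERK responsive genes each. The replicate numbers were not taken to pair the mice, since nothing in the labels says that they do. Same-numbered mice 1, 2 and 3 had correlations of their deviations from the genotype means of 0.267, −0.000281 and 0.127. Those of mice 1 and 3 were the highest across the genotypes, while LiKM 2 correlated best with LiK 3 (0.0434). These values do not settle whether the mice were paired. At 11 to 90 counts a mouse for Dusp5, 23 to 64 for Spry2 and 24 to 69 for Etv4, counting error adds to the spread between mice.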

Other observations

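Ratios of counts within a library do not depend on how libraries are scaled. The ratio of Dusp6 to Spry4, both outputs of ERK, was 3.10, 4.37 and 5.90 in LiKM mice and 1.81, 1.65 and 2.42 in LiK mice, and the genotypes did not overlap. The difference in mean log2 ratio was 1.15, with a two-sided exact permutation p of 0.1, the smallest that 3 mice against 3 allow, and 0.45 after Benjamini-Hochberg adjustment over the 45 pairs of the 10 genes. The ratio of Spry4 to Etv4 was 13.1, 9.32 and 11.6 in LiKM mice and 27.8, 31.6 and 33.3 in LiK mice, a difference of −1.44 with the same exact permutation p of 0.1. Of the 45 pairs, 6 did not overlap between the genotypes (13.3%), of which 3 held Spry4, against 30.9% of all pairs of genes tested. Both pairs were chosen after their values were seen.

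The genes whose log2 CPM over the 6 mice, centred on each gene's mean, lay nearest the mean profile of the 10 genes were Smyd5, Eif6, Calm3, Itm2c and Fam178a, with root mean square differences of 0.0480 to 0.0651 log2 units. The mean profile lay above 0 in every LiKM mouse and below 0 in every LiK mouse, so a higher level in LiKM was fixed by this choice of genes; their log2 fold changes were 0.30 to 0.43. Centred within each genotype instead, the 5 nearest genes shared 0 with these. Among the 10 genes, Spry1 and Spry2 were each other's nearest by both measures (0.258 over all mice, 0.190 within genotypes), as were Spred1 and Etv5 over all mice (0.211). Within genotypes, Spry4 and Etv4 were each other's nearest (0.154), as were Spred2 and Etv5 (0.130).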
